A study of Homo sapiens with 9 samples.

Results

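A set of 9 genes of the NRF2 pathway was followed across the series: the gene of NRF2 itself (NFE2L2), its inhibitor KEAP1, the receptor protein gene SQSTM1, and 6 genes that NRF2 is known to activate (HMOX1, NQO1, TXNRD1, TXN, SRXN1 and ME1). They were chosen by gene symbol, with earlier results of these data known. All 9 were found among the 16222 genes of the tables, and all 9 were among the 12970 genes tested. RNA was sequenced from the human line THP-1, which derives from a monocytic leukaemia and is given as wild type in the labels. All cells had been stimulated with PMA, a phorbol ester under which these suspension cells attach and become macrophage-like, so the controls carry that treatment too. The 3 groups were LPS with ABS (LPS_ABS), LPS alone (LPS) and PBS (control), with 3 libraries in each. LPS, lipopolysaccharide, is a cell wall component of Gram-negative bacteria that macrophages sense through TLR4. What ABS stands for is not written in the labels, although apoptotic bodies are named in the title of the series. Neither doses nor times were given in the sources used here. THP-1 is 1 leukaemia line, and no label says that the libraries of a group came from separate cultures. The p-values thus rest on the spread between these libraries only, which may be technical.

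NRF2 is a transcription factor that is made and degraded continuously in unstressed cells. KEAP1 binds it and presents it to the CUL3 ubiquitin ligase. Oxidants and electrophiles modify cysteines of KEAP1, NRF2 then escapes degradation, pairs with a small MAF protein and binds antioxidant response elements (AREs) near its targets. Because this control acts on the protein, the NFE2L2 transcript does not report NRF2 activity. In macrophages the pathway is known for limiting oxidative damage and inflammatory cytokine genes, and HMOX1 is also held back by the repressor BACH1.

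The core letters of the ARE were searched for in RefSeq promoter windows (GRCh38.p14), which run from 250 bases before to 50 bases after each listed start site. The search used TGACNNNGC on both strands. Windows existed for 8 of the 9 genes, 13 windows in all, and HMOX1 had none. The core was in 4 of these 13 windows, in KEAP1, TXNRD1 and ME1, against 13.3% of all 35116 windows. The stretches that hold a match upstream of the start site are shown because KEAP1 is the inhibitor of the pathway and ME1 and TXNRD1 are targets whose counts changed below. Each is printed 5′ to 3′ on the gene's strand, with the core or its reverse complement in capitals.
KEAP1, chr19:10502772-10502850, minus strand: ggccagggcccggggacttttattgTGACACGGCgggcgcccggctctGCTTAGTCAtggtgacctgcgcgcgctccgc
TXNRD1 first window, chr12:104215655-104215713, plus strand: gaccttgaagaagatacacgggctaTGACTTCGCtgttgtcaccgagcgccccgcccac
TXNRD1 second window, chr12:104286905-104286963, plus strand: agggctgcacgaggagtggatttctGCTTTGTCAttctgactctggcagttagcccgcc
ME1, chr6:83431155-83431213, minus strand: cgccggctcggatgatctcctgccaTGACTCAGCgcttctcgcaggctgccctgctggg
KEAP1 had 2 matches within 79 bases of its start site. A longer form, the core followed by A, was in 3.18% of all windows and was met by the reverse-strand match of KEAP1 and by the second TXNRD1 window. The ME1 match overlaps the letters TGACTCA, which meet the AP-1-type pattern TGANTCA, a pattern held by 7.71% of all windows. ME1 and the first TXNRD1 window each held 1 more match, at or just after the start site, that is not printed. A match of letters is a description only, and well-known AREs can lie outside these windows.

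Total counts were 38506162 to 41679412 per library. The 9 genes had between 505 counts (HMOX1 in control 3) and 23297 counts (SQSTM1 in LPS 3), so counting error was 4.45% at most, below the common coefficient of variation between libraries of 18.4%. Log2 CPM of libraries of the same group correlated at 0.979 to 0.995 (Pearson). On the first principal component (42.2% of the variance) the LPS_ABS libraries stood at −20.2, −42.2 and −47.3. That was apart from the LPS libraries (5.57 to 31.4) and the control libraries (14.4 to 23.1). On the second component (31.7%) LPS_ABS 1 and LPS_ABS 2 stood at 14.4 and 11.2, nearer to the LPS libraries (24.2 to 28.2). LPS_ABS 3 stood at −20.1 on it, nearer to the control libraries (−23.7 to −33). Of 10 monocyte and macrophage marker genes, 8 had a mean of at least 1 FPKM (the deposited values scaled to library total and gene length) in every group. The scavenger receptor genes MSR1 (group means 0.02 to 0.05 FPKM) and CD163 (0.14 to 0.29 FPKM) did not. The summed FPKM of the 10 was 638.9 to 721.5 in LPS_ABS, 606.9 to 625 in LPS and 539.7 to 580.5 in control libraries. These ranges do not overlap between groups, and the part of this difference in the results was not tested. Markers of T cells, fibroblasts, endothelium, epithelium and chondrocytes summed to at most 0.351 FPKM in any library, and those of B cells to at most 2.51 FPKM. Only markers with deposited values were summed, which were 1 of 5 for T cells and 2 of 4 for chondrocytes. IL1B, an inflammatory cytokine that LPS is known to induce, averaged 12.6 ± 1.0 CPM (counts relative to library size, after TMM scaling) in LPS and 42.0 ± 7.65 CPM in control libraries (SD, n = 3 each), a log2 fold change of −1.73 ± 0.20 (SE, adjusted p = 0.000229, edgeR quasi-likelihood test). IL1B averaged 68.9 ± 17.4 CPM in LPS_ABS libraries, 0.72 ± 0.19 above control on the log2 scale (adjusted p = 0.0137). TNF, another such cytokine, averaged 67.9 ± 30.6 CPM in LPS and 45.8 ± 3.29 CPM in control libraries, a log2 fold change of 0.57 ± 0.41 that did not pass (adjusted p = 0.393). IL1B was thus lower in the libraries labelled LPS than in control libraries, opposite to its known induction. Doses and times were not given, and the reason was not tested. Directions drawn from the LPS libraries are to be read beside this value.

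The libraries also differed in how their counts depended on base composition. The slope of log2 counts on the GC content of a gene's transcript, per 10 percentage points, was 0.20, 0.29 and 0.32 in the 3 LPS_ABS libraries. It was −0.27, −0.02 and −0.10 in the LPS libraries and −0.15, −0.14 and −0.12 in the control libraries. Across the genes tested, the log2 fold change of LPS_ABS over LPS rose with GC content (Spearman rho 0.692), as did that of LPS_ABS over control (0.687), while that of LPS over control did not (0.011). These are descriptions across genes, which are not independent replicates. The slope separates the LPS_ABS libraries from the other 6, so that the GC trend and the treatment cannot be told apart. Each fold change of the 9 genes is therefore given without and with a correction that removes a smooth GC trend from every library. The correction also takes the place of the TMM scaling. Levels per library and overlaps of groups are without it unless named otherwise.

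Per length, TXN was the most abundant of the 9 transcripts in every group and SQSTM1 the second. TXN encodes thioredoxin, the small protein that reduces disulphides in other proteins, and it averaged 204 ± 27.4 FPKM in LPS_ABS, 258 ± 30.4 in LPS and 301 ± 15.8 in control libraries (SD, n = 3 each). SQSTM1 averaged 145 ± 31.2, 148 ± 31.7 and 123 ± 10.3 FPKM in the same order of groups. KEAP1, NQO1 and TXNRD1 formed a middle group between 42.1 and 72.0 FPKM, in an order that changed: KEAP1 led it in LPS_ABS libraries (65.4 FPKM), NQO1 in LPS libraries (72.0 FPKM) and TXNRD1 in control libraries (69.7 FPKM). In LPS libraries the ranges of neighbours within the middle group overlapped, as did those of NQO1 and TXNRD1 in LPS_ABS libraries and of KEAP1 and NQO1 in control libraries. HMOX1 was the least abundant in every group, at 14.6 ± 3.06 FPKM in LPS_ABS, 16.0 ± 4.19 in LPS and 9.11 ± 1.11 in control libraries. Together with SRXN1, NFE2L2 and ME1 it made up the low end, where neighbouring ranges overlapped in the LPS_ABS and LPS libraries. In control libraries 98.69% of all genes in the table lay below TXN and 69.04% below HMOX1.

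Among the regulators, NFE2L2 was lowest in the LPS_ABS libraries. It had 65.4, 48.1 and 39.3 CPM in LPS_ABS libraries, 78.4, 69.5 and 90.0 CPM in LPS libraries, and 72.2, 61.8 and 74.1 CPM in control libraries. All 3 LPS_ABS values lay below all 3 LPS values, and 1 of them, LPS_ABS 1, lay among the control values. With the GC correction LPS_ABS 1 stood at 73.4 CPM, above LPS 2 at 68.2 CPM. KEAP1 had 226.4, 200.0 and 201.8 CPM in LPS_ABS libraries, 109.5, 206.1 and 189.8 CPM in LPS libraries, and 182.2, 176.8 and 163.3 CPM in control libraries. The LPS group was spread by 1 library, LPS 1, which had the lowest KEAP1 of all 9 libraries and the lowest GC slope. SQSTM1 encodes p62, an autophagy receptor that binds KEAP1 and is itself an NRF2 target. It had 631.9, 480.4 and 388.0 CPM in LPS_ABS libraries, 374.8, 454.2 and 599.5 CPM in LPS libraries, and 404.3, 401.9 and 354.7 CPM in control libraries. The 3 groups overlapped, and both treated groups varied more (SD 123 and 114 CPM) than the controls (SD 27.9 CPM).

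HMOX1 encodes heme oxygenase 1, which opens heme to biliverdin, carbon monoxide and iron. It had 30.4, 22.4 and 19.1 CPM in LPS_ABS libraries, 18.9, 22.6 and 32.5 CPM in LPS libraries, and 13.2, 15.4 and 12.4 CPM in control libraries. All 6 treated libraries lay above all 3 controls, and the treated groups overlapped each other. With the GC correction HMOX1 of LPS_ABS 3 stood at 16.1 CPM, below control 2 at 16.3 CPM. ME1 encodes cytosolic malic enzyme, which makes NADPH, the reductant that the thioredoxin and glutathione systems use. It had 58.1, 73.6 and 50.1 CPM in LPS_ABS libraries, 92.8, 91.4 and 104.6 CPM in LPS libraries, and 45.4, 42.8 and 47.4 CPM in control libraries. The 3 groups did not overlap, with LPS highest and control lowest.

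NQO1 encodes a quinone reductase that uses NADPH or NADH to reduce quinones fully, without a radical intermediate. It had 152.6, 126.4 and 110.5 CPM in LPS_ABS libraries, 164.4, 158.3 and 214.0 CPM in LPS libraries, and 131.7, 129.3 and 142.8 CPM in control libraries. LPS libraries were above all others, and LPS_ABS and control libraries overlapped. With the GC correction NQO1 of LPS_ABS 1 stood at 170.3 CPM, above LPS 1 (155.5) and LPS 2 (156.2). TXNRD1, cytosolic thioredoxin reductase, had 189.3, 137.4 and 198.6 CPM in LPS_ABS libraries, 228.7, 218.8 and 266.7 CPM in LPS libraries, and 264.9, 267.2 and 262.2 CPM in control libraries. TXNRD1 was lower in every LPS_ABS library than in any other library. With the GC correction TXNRD1 of LPS_ABS 1 stood at 214.9 CPM, above LPS 1 (209.7) and LPS 2 (212.3). Its substrate TXN had 153.6, 180.4 and 142.3 CPM in LPS_ABS libraries, 207.3, 173.1 and 180.9 CPM in LPS libraries, and 225.4, 204.8 and 211.5 CPM in control libraries. The TXN values of LPS_ABS libraries lay below all controls and overlapped those of LPS libraries. With the GC correction TXN of LPS_ABS 2 stood at 229 CPM, above the highest control value (199.5, control 1). SRXN1, sulfiredoxin, which restores over-oxidised peroxiredoxins, had 50.6, 58.3 and 53.1 CPM in LPS_ABS libraries, 38.6, 46.5 and 57.4 CPM in LPS libraries, and 49.6, 44.9 and 40.9 CPM in control libraries. It varied least of the 9 genes, with a highest value 1.51 times the lowest. Fewer cells of a type and less RNA per cell cannot be told apart in such bulk libraries.

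**Figure D1:**
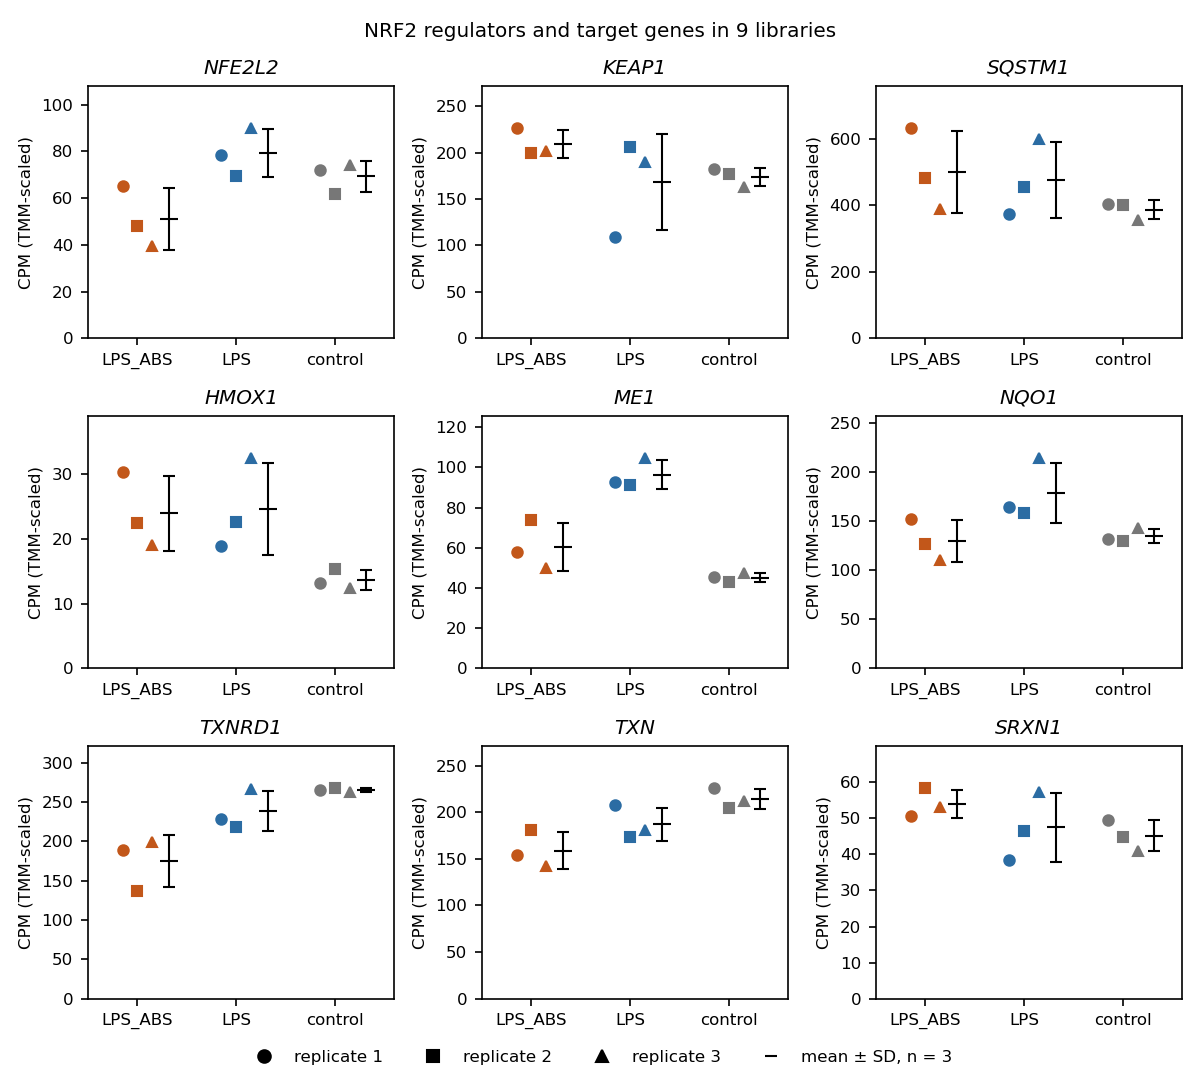
Level of each of the 9 genes (y axis, CPM after TMM scaling, from 0) in the libraries of the LPS_ABS, LPS and control groups (x axis). Symbols are single libraries by replicate number, and the bar is the mean ± SD of 3 libraries. Without the GC correction, as shown, HMOX1 and ME1 lie above all controls in both treated groups, and TXNRD1 lies below all other libraries in LPS_ABS.

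LPS against control asks how the pathway stood after LPS alone, and here 2 of the 9 genes rose and none fell. ME1 rose 2.13-fold, a log2 fold change of 1.09 ± 0.15 (SE, adjusted p = 0.000671, edgeR quasi-likelihood test with Benjamini-Hochberg adjustment over all genes tested, as for every adjusted p below unless named otherwise). HMOX1 rose 1.80-fold, a log2 fold change of 0.85 ± 0.22 (adjusted p = 0.0225). The other 7 did not pass an adjusted p of 0.05. For comparison, 7.71% of all genes tested passed as higher and 7.19% as lower in LPS. NQO1 was higher in 3 of 3 LPS libraries, with a log2 fold change of 0.41 ± 0.15 that missed the threshold (adjusted p = 0.0864). It passed when LPS_ABS 1 (adjusted p = 0.0481) or LPS_ABS 3 (0.0478) was left out of the shared fit, or when only the LPS and control libraries were fitted (0.0355). Log2 fold changes were 0.30 ± 0.19 for SQSTM1, 0.19 ± 0.18 for NFE2L2, 0.07 ± 0.15 for SRXN1, −0.05 ± 0.19 for KEAP1, −0.15 ± 0.14 for TXNRD1 and −0.19 ± 0.12 for TXN, with adjusted p from 0.325 to 0.903. The 3 genes whose LPS and control libraries did not overlap were HMOX1, NQO1 and ME1, and 42.6% of all genes tested had groups that did not overlap. The median of the 9 log2 fold changes was 0.19, beside −0.03 over all genes tested.

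The GC correction changed little in this comparison. The same 2 genes passed as higher, ME1 with a log2 fold change of 1.12 ± 0.16 (adjusted p = 0.000536) and HMOX1 with 0.87 ± 0.19 (adjusted p = 0.00643), where 11.4% of all genes passed as higher and 9.71% as lower. NQO1 stood at 0.45 ± 0.16 (adjusted p = 0.0614). ME1 passed in each of the 9 fits that left out 1 library, at 1.03 to 1.17. HMOX1 passed in 5 of those 9 fits: without LPS 3 its log2 fold change was 0.60 (adjusted p = 0.118), and its adjusted p was 0.0807 without control 1, 0.0503 without control 2 and 0.0934 without control 3. With the GC correction HMOX1 passed in 9 of 9 such fits. Without LPS 1, whose KEAP1 count was low, KEAP1 had a log2 fold change of 0.19 (adjusted p = 0.33).

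LPS_ABS against LPS asks what adding ABS changed, and here 4 of the 9 genes fell and none rose. ME1 fell by 0.67 ± 0.15 on the log2 scale (adjusted p = 0.00762), NFE2L2 by 0.64 ± 0.18 (0.0183), NQO1 by 0.46 ± 0.15 (0.0323) and TXNRD1 by 0.44 ± 0.14 (0.0314). These 4 were also the genes whose groups did not overlap without the GC correction, which held for 46.2% of all genes tested. Of all genes tested, 18.8% passed as lower and 16.8% as higher. The other 5 did not pass: the log2 fold change was 0.31 ± 0.19 for KEAP1, 0.19 ± 0.15 for SRXN1, 0.07 ± 0.19 for SQSTM1, −0.04 ± 0.22 for HMOX1 and −0.24 ± 0.13 for TXN, with adjusted p from 0.154 to 0.9. The sign of SQSTM1 was negative (−0.03 and −0.02) when libraries were scaled by total counts or by upper quartiles. The median of the 9 was −0.24, beside 0.02 over all genes tested.

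The 4 genes that fell have transcripts of GC content below the median of 49.24% over the genes tested. It was 39.51% in ME1, 45.64% in NFE2L2, 46.02% in NQO1 and 44.8% in TXNRD1, and only ME1 lay below the lower quartile of 42.4%. Genes within 2 percentage points of the GC content of ME1, 1975 in number, had a median log2 fold change of −0.62 in the same comparison, close to the −0.67 of ME1 itself. The corresponding medians were −0.15 around NFE2L2, −0.12 around NQO1 and −0.22 around TXNRD1, each nearer to 0 than the value of the gene. With the GC correction none of the 9 genes passed in either direction, where 5.03% of all genes passed as higher and 4.23% as lower. NFE2L2 then stood at −0.46 ± 0.19 (adjusted p = 0.128), NQO1 at −0.32 ± 0.16 (0.209), TXNRD1 at −0.22 ± 0.13 (0.279) and ME1 at −0.04 ± 0.16 (0.894). At GC contents of 58.04% to 60.3%, HMOX1, SQSTM1 and KEAP1 moved the other way, to −0.42 ± 0.19, −0.31 ± 0.16 and −0.08 ± 0.13, beside medians of 0.38, 0.38 and 0.43 among all genes of like GC content before correction. TXN, at 42.81% GC, stood at 0.16 ± 0.12 and SRXN1, at 53.56%, at −0.06 ± 0.14 after correction.

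Single libraries decided several of these calls. ME1 passed without correction in each of the 9 fits that left out 1 library. NFE2L2 passed in 7 of 9, with an adjusted p of 0.0586 without LPS_ABS 2 and 0.0718 without LPS 3. NQO1 passed in 4 of 9, with adjusted p of 0.0844, 0.0859, 0.151, 0.0513 and 0.0508 without LPS_ABS 2, LPS_ABS 3, LPS 3, control 1 and control 2. TXNRD1 passed in 4 of 9, with adjusted p of 0.0989, 0.0598, 0.123, 0.0516 and 0.0515 without LPS_ABS 2, LPS 1, LPS 3, control 1 and control 2. With the GC correction and without LPS_ABS 1, 4 genes passed as lower: NFE2L2 at −0.72 (adjusted p = 0.00976), HMOX1 at −0.60 (0.0413), NQO1 at −0.49 (0.0398) and SQSTM1 at −0.48 (0.0492). Without LPS_ABS 3, the library on the control side of the second component, the corrected values were −0.27, −0.29, −0.17 and −0.16 (adjusted p from 0.316 to 0.539).

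**Figure D2:**
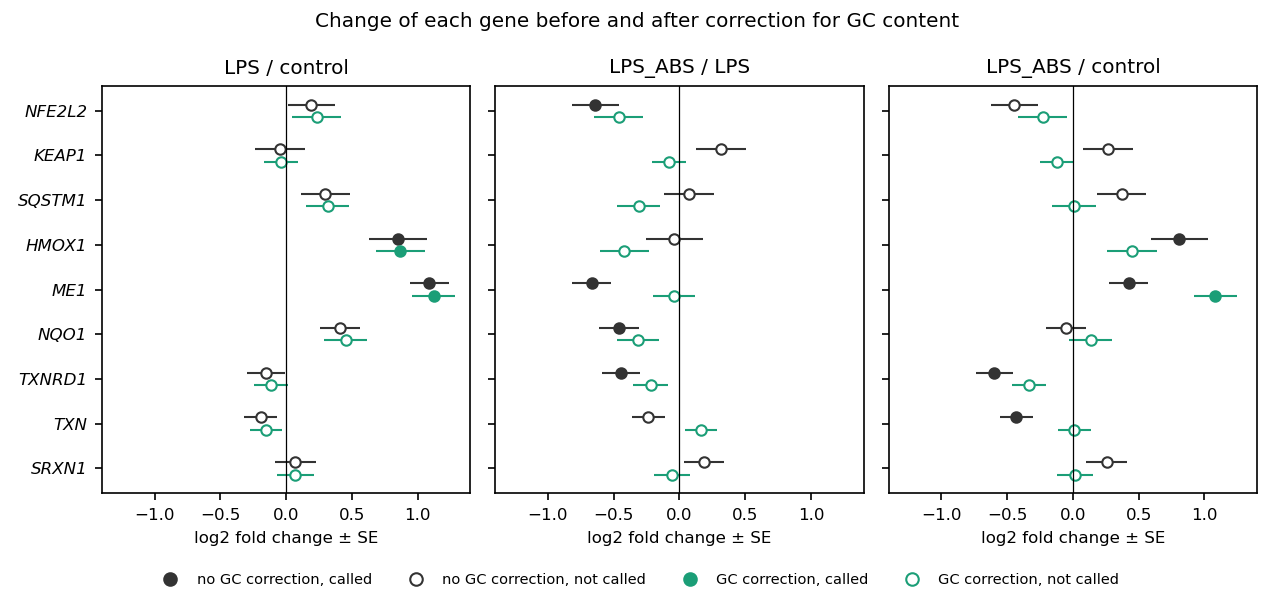
Log2 fold change ± SE (x axis) of each gene (rows) for LPS over control, LPS_ABS over LPS and LPS_ABS over control, without (dark) and with (green) the GC correction. Filled points pass an adjusted p of 0.05: the LPS over control panel has the same filled rows under both, the LPS_ABS over LPS panel has 4 filled dark points and no filled green one.

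LPS_ABS against control asks how far cells given LPS with ABS stood from those given PBS, and here 2 of the 9 genes rose and 2 fell. HMOX1 rose by 0.81 ± 0.22 on the log2 scale, 1.75-fold (adjusted p = 0.0153), and ME1 by 0.42 ± 0.15, 1.34-fold (0.0428). TXNRD1 fell by 0.60 ± 0.14 (adjusted p = 0.00895) and TXN by 0.43 ± 0.13 (0.0207), so both genes of the thioredoxin pair were lower. Of all genes tested, 14.8% passed as higher and 19% as lower. NFE2L2 had a log2 fold change of −0.45 ± 0.18 (adjusted p = 0.0702), which passed without LPS_ABS 1 (−0.67, adjusted p = 0.00669). KEAP1 at 0.27 ± 0.19 (adjusted p = 0.285) and SRXN1 at 0.26 ± 0.16 (0.206) were higher in 3 of 3 LPS_ABS libraries without passing. With HMOX1, ME1, TXNRD1 and TXN they made 6 genes whose groups did not overlap without the GC correction, against 50% of all genes tested. SQSTM1 stood at 0.37 ± 0.19 (adjusted p = 0.142) and passed without LPS_ABS 3 (0.52, 0.0414), and NQO1 stood at −0.05 ± 0.15 (0.804). This comparison shares its libraries with the other 2.

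With the GC correction ME1 was the only one of the 9 genes that passed in this comparison, where 7.94% of all genes passed as higher and 5.06% as lower. Its log2 fold change was 1.08 ± 0.16 (adjusted p = 0.00133), against 0.42 without correction, and genes of its GC content had a median of −0.65 in LPS_ABS over control before correction. Its corrected levels were 64.1, 104.4 and 75.5 CPM in LPS_ABS libraries, 74.5, 83.9 and 92.3 CPM in LPS libraries, and 37.2, 36.6 and 41.4 CPM in control libraries, so that both treated groups lay above all controls and overlapped each other. HMOX1 stood at 0.45 ± 0.19 (adjusted p = 0.135), TXNRD1 at −0.33 ± 0.13 (0.109) and TXN at 0.01 ± 0.12 (0.961). Medians among genes of like GC content were 0.38 around HMOX1, −0.25 around TXNRD1 and −0.42 around TXN. KEAP1 stood at −0.12 ± 0.13, NFE2L2 at −0.23 ± 0.19, NQO1 at 0.13 ± 0.16, SRXN1 at 0.02 ± 0.14 and SQSTM1 at 0.01 ± 0.16.

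Without correction, TXNRD1 passed in each of the 9 fits that left out 1 library. HMOX1 passed in 7 of 9, with adjusted p of 0.0578 without control 1 and 0.0567 without control 3. TXN passed in 6 of 9, missing the threshold without control 1, 2 or 3 (0.0885, 0.0518 and 0.0526). ME1 passed in 4 of 9, with 0.17 without LPS_ABS 2, 0.0606 without LPS 3 and 0.114, 0.14 and 0.078 without control 1, 2 and 3, whereas with the GC correction it passed in 9 of 9. Corrected HMOX1 passed in 1 of 9, without LPS_ABS 3 (0.58, adjusted p = 0.0419). Scaling by total counts alone lowered the median log2 fold change of all genes by 0.13 in this comparison and by 0.10 in LPS_ABS over LPS, and it left ME1 at 0.30 over control (adjusted p = 0.137). Of all called genes, 43.8% were higher in LPS_ABS than in control libraries, against 26.7% with total counts and 27.9% in limma on log2(FPKM + 1). For LPS_ABS over LPS those shares were 47.2%, 32.6% and 35.9%, and 34.6% with upper-quartile factors.

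**Figure D3:**
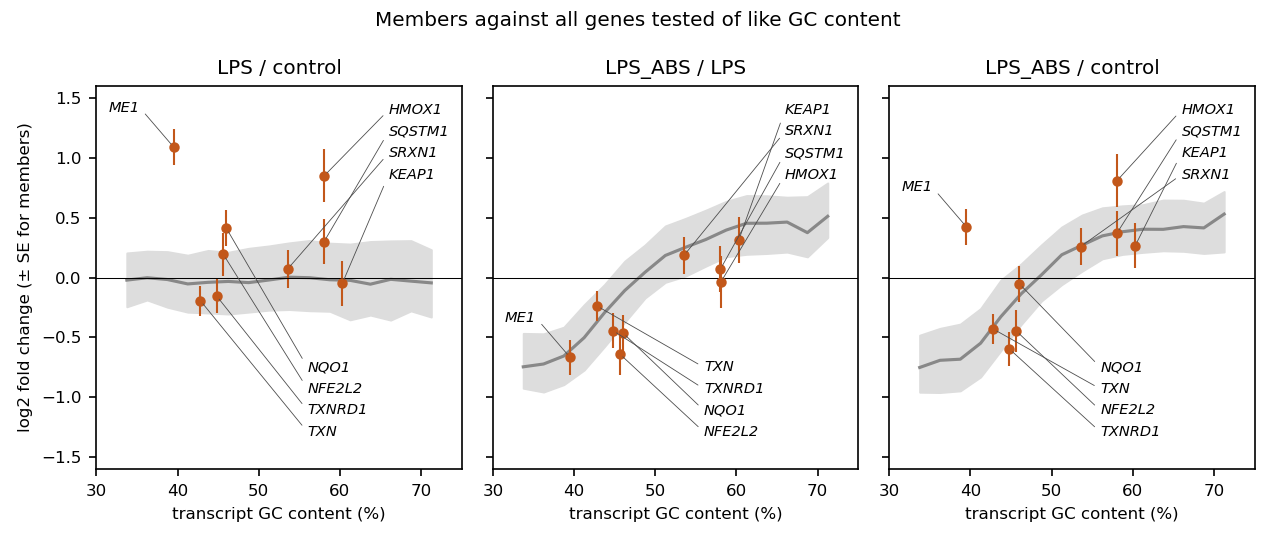
Log2 fold change (y axis) against transcript GC content in percent (x axis) for the 9 genes (points ± SE) in LPS over control, LPS_ABS over LPS and LPS_ABS over control. The grey line is the median and the band the middle 50% of all genes tested in bins of GC content. ME1 lies on the line in LPS_ABS over LPS (−0.67 against −0.62) and far above it in the comparisons with control.

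Of the wider pathway, 67 genes in 8 lists were tested, and the lists were chosen with earlier results known. In LPS over control, 14 of the 67 rose (20.9%) and 3 fell (4.48%), beside 7.71% and 7.19% of all genes tested. After the GC correction 19 rose (28.4%) and 5 fell (7.46%), beside 11.4% and 9.71% of all genes. All 17 genes called without the correction were also called with it, and their log2 fold changes moved by at most 0.06, so the values for LPS over control that follow are those without it. The 7 called with the correction alone were GCLC (0.50, adjusted p = 0.0294), SLC48A1 (0.54, 0.0156), TRIM16 (0.53, 0.0499), TXNRD2 (0.40, 0.0459) and OPTN (0.40, 0.0448), which were higher, and MAFK (−0.38, 0.0455) and HMOX2 (−0.34, 0.0449), which were lower. Among NRF2 partners and regulators 1 of 10 rose, NFE2L1, the gene of the related factor NRF1, which is known for activating proteasome genes. NFE2L1 had 490.4, 437.9 and 271.9 CPM in LPS_ABS libraries, 431.4, 474.2 and 524.3 CPM in LPS libraries, and 146.1, 151.8 and 143.8 CPM in control libraries. All 6 treated libraries lay above the controls, with log2 fold changes of 1.69 ± 0.18 for LPS (adjusted p = 0.000169) and 1.44 ± 0.18 for LPS_ABS (0.000497, and 1.15 with the GC correction, adjusted p = 0.00133). CUL3, the ubiquitin ligase subunit that acts with KEAP1, and BACH1 did not pass in LPS over control.

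In the glutathione list 2 of 9 rose in LPS over control. They were SLC7A11, the cystine importer that feeds glutathione synthesis, with a log2 fold change of 1.70 ± 0.39 (adjusted p = 0.0127), and the glutaredoxin gene GLRX, with 0.87 ± 0.15 (0.00324). SLC7A11 had 150.8, 65.2 and 32.2 CPM in LPS_ABS libraries, 134.0, 107.4 and 138.8 CPM in LPS libraries, and 41.3, 37.6 and 38.4 CPM in control libraries. All LPS libraries were above the controls, while LPS_ABS 3 was below them. In the NADPH list 3 of 5 rose: TKT by 0.45 ± 0.13 (adjusted p = 0.0375), PGD by 0.44 ± 0.11 (0.0204) and IDH1 by 0.41 ± 0.11 (0.0271). In the heme and iron list 1 of 8 rose, BLVRB, a biliverdin reductase, by 1.06 ± 0.17 (adjusted p = 0.00175), and the ferritin genes FTL and FTH1 did not pass.

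The detoxification list was mixed in LPS over control, with 1 of 13 higher and 2 lower. EPHX1, microsomal epoxide hydrolase, rose by 0.56 ± 0.13 (adjusted p = 0.015). The aldo-keto reductase genes AKR1C2 and AKR1C3 fell by 1.15 ± 0.16 (0.000645) and 0.65 ± 0.16 (0.0188). AKR1C2 had 245.6, 234.5 and 167.0 CPM in LPS_ABS libraries, 111.5, 86.7 and 101.2 CPM in LPS libraries, and 212.6, 215.2 and 236.9 CPM in control libraries. Every LPS library lay below all others. AKR1C1, AKR1C2 and AKR1C3 are related genes of similar sequence between which the counting could have split reads, so their single values are uncertain. TXNIP, the inhibitor of thioredoxin, rose by 1.92 ± 0.21 (adjusted p = 0.000178), with 696 ± 31.1 CPM in LPS and 184 ± 7.82 CPM in control libraries. In the same list of 7, PRDX5 rose by 0.71 ± 0.17 (0.015) and PRDX4 fell by 0.83 ± 0.13 (0.00134). Of the paralogs 1 of 7 rose, TXNRD3 by 0.76 ± 0.23 (0.046), and without the correction none of HMOX2, NQO2, ME2, ME3, TXN2 and TXNRD2 passed. Of the autophagy receptors and LC3 family, 3 of 8 rose: GABARAP by 0.87 ± 0.17 (0.00514), CALCOCO2 by 0.83 ± 0.16 (0.00558) and MAP1LC3B by 0.48 ± 0.13 (0.0268).

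In LPS_ABS over LPS, 8 of the 67 rose (11.9%) and 18 fell (26.9%), beside 16.8% and 18.8% of all genes tested. After the correction 4 rose (5.97%) and 7 fell (10.4%), beside 5.03% and 4.23% of all genes, so that the share that rose was near that of all genes. Of the 26 genes called without the correction 6 were also called with it, and 5 were called with it alone. Those that rose after correction were AKR1C2 (1.69, adjusted p = 5.1e-05), AKR1C3 (1.51, 0.000351), AKR1C1 (1.10, 0.011) and the microsomal glutathione transferase gene MGST1 (0.85, 0.0197). Those that fell were TAX1BP1 (−0.91, adjusted p = 0.0223), BLVRB (−0.84, 0.0125), PIR (−0.65, 0.0127), PRDX5 (−0.65, 0.0349), GCLC (−0.52, 0.0457), SLC48A1 (−0.48, 0.0459) and EPHX1 (−0.46, 0.0266). Without the correction AKR1C2 stood at 1.11 (adjusted p = 0.00309), AKR1C3 at 1.0 (0.00391), AKR1C1 at 0.67 (0.0347), TAX1BP1 at −0.92 (0.00628), PIR at −0.49 (0.0193) and GCLC at −0.78 (0.00678). The 5 that passed with the correction alone stood without it at −0.04 for MGST1 (adjusted p = 0.83), −0.38 for BLVRB (0.0948), −0.20 for PRDX5 (0.381), −0.12 for SLC48A1 (0.632) and −0.12 for EPHX1 (0.484). GCLC encodes the catalytic subunit of the enzyme that limits glutathione synthesis, and TAX1BP1 is an autophagy receptor. This comparison shares the LPS libraries with the preceding one, so the signs of BLVRB, EPHX1, AKR1C2 and AKR1C3 in both are not independent. CUL3 fell by 0.67 ± 0.14 before correction (adjusted p = 0.00639) and stood at 0.04 after it (0.853).

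In LPS_ABS over control, 14 of the 67 rose (20.9%) and 6 fell (8.96%), beside 14.8% and 19% of all genes tested. After the correction 10 rose (14.9%) and 3 fell (4.48%), beside 7.94% and 5.06% of all genes, so that the share that fell was near that of all genes. Of the 20 genes called without the correction 4 were also called with it, and 9 were called with it alone. The 10 that rose with it included NFE2L1, SLC7A11 at 1.69 (adjusted p = 0.00117), TXNIP at 1.28 (0.00293) and the small MAF gene MAFG at 0.62 (0.0126). Also higher were AKR1C3 at 0.90 (0.00185), AKR1C2 at 0.57 (0.013) and AKR1C1 at 0.84 (0.0195). The rest were CALCOCO2 at 0.70 (0.0181), PRDX6 at 0.47 (0.0214) and GCLM at 0.52 (0.0451). The 3 that fell after correction were HMOX2 at −0.52 (0.00942), PRDX4 at −0.49 (0.0172) and PRDX1 at −0.45 (0.0208). Without the correction SLC7A11 stood at 1.08 (adjusted p = 0.0459), TXNIP at 0.91 (0.00628) and MAFG at 0.97 (0.00246), while HMOX2 at −0.18 (0.261), PRDX4 at −0.33 (0.0618) and PRDX1 at −0.30 (0.0501) did not pass. Nor did AKR1C3 at 0.35 (0.108), AKR1C2 at −0.04 (0.859) and AKR1C1 at 0.37 (0.205). The same held for CALCOCO2 at 0.36 (0.0973), PRDX6 at 0.23 (0.14) and GCLM at −0.19 (0.391).

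**Figure D4:**
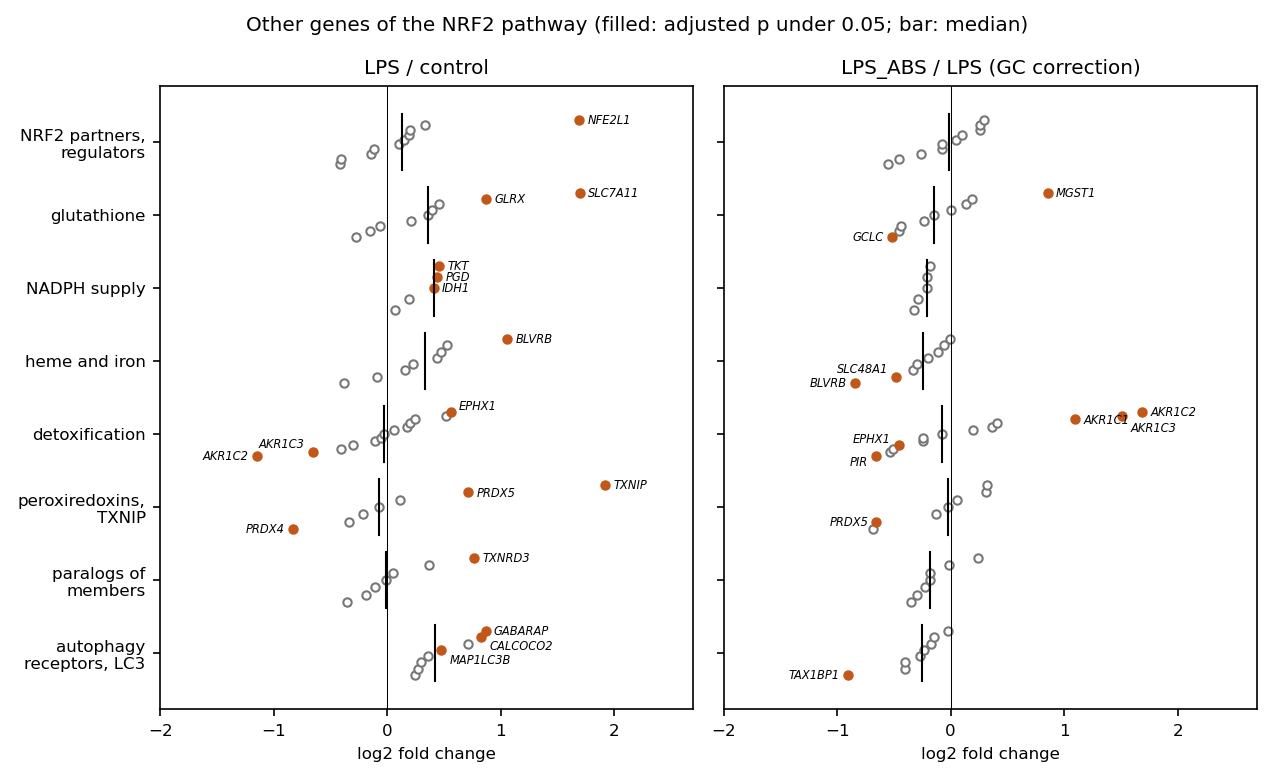
Log2 fold change (x axis) of the 67 other pathway genes tested, by list (rows), for LPS over control without correction and LPS_ABS over LPS with the GC correction. Each point is a gene, filled where its adjusted p is under 0.05, and the vertical bar is the median of the list. NFE2L1, SLC7A11 and TXNIP lie farthest to the right for LPS, and AKR1C1, AKR1C2 and AKR1C3 for LPS_ABS over LPS.

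Genes most like each of the 9 over the 9 libraries, by Pearson r of log2 CPM among 10625 genes with a mean of at least 100 counts, were taken as a description, since all pairs share the same libraries, treatments and GC trend. For HMOX1 one was SERPING1 (r = 0.984, and 0.980 after the GC correction). For TXNRD1 they were GSAP (0.984, and 0.984 after correction) and EIF2AK3 (0.976 and 0.953), which encodes the stress kinase PERK. For NQO1 they were IFIH1 (0.958 and 0.949), the gene of the RNA sensor MDA5, and MTMR7 (0.957 and 0.741). For NFE2L2 they were DDX60L (0.985 and 0.954) and SDCBP (0.986 and 0.287), and for ME1 BIN2 (0.992 and 0.707) and TXNIP (0.981 and 0.887). Those of KEAP1 were MYO1C (0.982 and 0.927) and TBC1D13 (0.977 and 0.901), and those of SQSTM1 were CLEC11A (0.965 and 0.882) and DOK2 (0.956 and 0.887). TXN had RPS27A (0.987 and 0.767) and SMYD3 (0.984 and 0.309), and SRXN1 had GIMAP1 (0.930 and 0.749). Of the pairs given here, the likeness of SDCBP to NFE2L2 and of SMYD3 to TXN fell most with the correction.

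Among the 9 genes themselves, HMOX1 and SQSTM1 varied most alike across the libraries (r = 0.892, and 0.836 after the GC correction), followed by NFE2L2 and NQO1 (0.841 and 0.823). After correction the highest r was between NQO1 and SQSTM1 (0.933, against 0.526 before it), then between HMOX1 and NQO1 (0.901, against 0.560). Within the LPS_ABS group LPS_ABS 1 had the highest and LPS_ABS 3 the lowest value of NFE2L2, SQSTM1, HMOX1 and NQO1. Within the LPS group LPS 3 had the highest value of all 4. That was not particular to them: LPS 3 was also highest in TXNRD1 (266.7 CPM), SRXN1 (57.4 CPM) and ME1 (104.6 CPM). In ME1, TXN and SRXN1 the highest LPS_ABS value was that of LPS_ABS 2. In the annotation deposited with the table, 4 of the 9 genes carried the term cell redox homeostasis (NFE2L2, NQO1, TXNRD1 and TXN), which 0.259% of all genes carried. The 9 were chosen as genes of the NRF2 pathway, so a shared redox term follows from that choice and is a description only.

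Some counts may include reads of other transcripts, since the strand setting of the counting was not given in the sources used here. In GENCODE v29, exons of SQSTM1 overlap 803 bases of MRNIP and 105 bases of MGAT4B on the opposite strand, and those of NQO1 overlap 347 bases of an antisense RNA. Exons of NFE2L2 overlap 205 bases of AC019080.1 on the same strand, and on the opposite strand 190 bases of AC079305.1 and 54 bases of AGPS. An exon of SRXN1 overlaps 2292 bases of AL121758.1 on the same strand, and by name TXN has 7 processed pseudogenes and SQSTM1 has 1. Each number of bases is the largest overlap of a single pair of exons, so the shared total may be greater. The values of these 5 genes are uncertain for these reasons.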

How the data were processed

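The members and the wider lists were chosen with earlier results of these data known. RNA was sequenced in 9 libraries, grouped by the treatment in their labels. The authors deposited raw read counts per gene and FPKM values per gene. For 15421 genes, dividing each count by the library total and by the deposited FPKM gave the same gene length in all 9 libraries (largest relative spread 1.1e-15). The submitters' processing notes list HISAT2, HTSeq and fastp, with DESeq2 and R 3.2.0. Neither their roles nor the genome build and strand setting are given in these sources. Per the labels' protocols, a TruSeq stranded kit and a VAHTS Universal V5 kit are named for every sample, without saying which was used.

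The main test was the quasi-likelihood test of edgeR 4.0.16 (R 4.3.3) on the counts: filterByExpr by group left 12970 genes, TMM scaled the libraries, and 1 fit of 3 group means to all 9 libraries gave every comparison. Adjusted p-values are Benjamini-Hochberg over all genes tested, and a gene was called under 0.05. The SE of a log2 fold change is its size over the square root of F. The GC correction was a lowess fit (span 0.3) on transcript GC content (longest protein-coding transcript in GENCODE v29), matched for 99.34% of genes. What was fitted per library was each gene's log count relative to library total, less its mean over the libraries. The fit and the library totals were used as offsets in place of the TMM factors, so the scaling changed too. The median log2 fold change shifted by 0.03 in LPS over control, −0.07 in LPS_ABS over LPS and −0.04 in LPS_ABS over control. The method was tested on simulated counts with changes placed in the LPS group only. Recovery of a change in LPS_ABS libraries after the GC correction was therefore not tested. Promoter sequences are RefSeq's, read in windows on GRCh38.p14. Alternatives were other scalings and filters, DESeq2 1.42.0, limma 3.58.1 (voom, and log2(FPKM + 1) and log2(FPKM + 0.1)), 2 groups only, a replicate block, and leaving out each library. No pair of libraries within a group was a duplicate (lowest chi-square per degree of freedom 7.07). All 9 genes, up to 4 genes of each list with the smallest adjusted p per comparison, others needed to say which list genes were called, and the 2 most alike genes were named, except that for HMOX1 and SRXN1 1 of the 2 is not reported here. IL1B and TNF were named after their values were seen.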

Additional observations from a re-analysis of the deposited data

How the results depend on the processing

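Over 31 alternatives for each gene and comparison, 632 values kept their direction and side of the threshold, 96 kept the direction but no longer passed, 15 passed newly and 94 changed sign; the GC correction and the left-out libraries are given in the report and the causes were not tested. In LPS_ABS over LPS, SQSTM1 changed sign to −0.031 with total counts, −0.018 with upper-quartile factors, −0.031 in limma on log2(FPKM + 1) and −0.031 on log2(FPKM + 0.1). With the GC correction, SQSTM1 stood at −0.31 (−0.32 with a replicate block as well), KEAP1 at −0.080 (−0.072), TXN at 0.16 (0.16) and SRXN1 at −0.055 (−0.053). In LPS_ABS over control the corrected values were −0.12 (−0.12 with the block) for KEAP1, 0.13 (0.13) for NQO1 and 0.011 (0.0052) for TXN.

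Leaving out each library, with and without the GC correction, gave the following log2 fold changes for genes that changed sign. In LPS_ABS over LPS they were −0.60 to 0.21 for HMOX1, −0.23 to 0.46 for KEAP1, −0.83 to 0.11 for ME1, −0.48 to 0.27 for SQSTM1, −0.14 to 0.34 for SRXN1 and −0.34 to 0.24 for TXN. In LPS_ABS over control they were −0.16 to 0.30 for KEAP1, −0.18 to 0.28 for NQO1, −0.16 to 0.52 for SQSTM1, −0.055 to 0.33 for SRXN1 and −0.53 to 0.089 for TXN. In LPS over control they were −0.18 to 0.19 for KEAP1 and −0.087 to 0.20 for SRXN1.

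Of the 9 genes, those that rose in LPS_ABS over control numbered 1 in place of 2 with total counts, upper-quartile factors, limma on FPKM (both pseudocounts), 2 groups only, the GC correction, the replicate block, and the correction and block together. Those that fell numbered 0 in place of 2 with the GC correction, with or without the block. In LPS_ABS over LPS, 2 in place of 4 fell with 2 groups only, and 0 with the GC correction, with or without the block. Over all genes, calls in LPS_ABS over control were 1192 higher with total counts, 1146 and 1137 higher in limma on FPKM, 1030 higher and 656 lower with the GC correction, and 1042 higher and 701 lower with the block added, beside 1920 higher and 2468 lower in the main test. In LPS_ABS over LPS they were 1162 higher with 2 groups only, 653 higher and 548 lower with the GC correction, and 753 higher and 657 lower with the block added, beside 2179 and 2442. In LPS over control they were 1553 higher and 1692 lower with 2 groups only, beside 1000 and 933. Without 1 library each and without the GC correction, LPS over control had 537 to 1328 higher and 329 to 1382 lower, LPS_ABS over LPS 1002 to 2153 and 1358 to 2765, and LPS_ABS over control 906 to 2290 and 1445 to 2710; with the correction these were 880 to 1875 and 613 to 1739, 112 to 1474 and 74 to 1275, and 437 to 1459 and 150 to 1156. Of the 9 genes these fits called 1 to 3 higher in LPS over control (2 to 3 with the correction), 1 to 4 lower in LPS_ABS over LPS (0 to 4), and 0 to 3 higher (1 to 2) and 1 to 3 lower (0 to 0) in LPS_ABS over control. Whether equal replicate numbers mark a shared culture or day is not known. The deviations of same-numbered libraries from their group means correlated at −0.064 to 0.306, and those of other pairs at −0.32 to 0.264. Not every library correlated best with its own number, and with 3 libraries per group these values cannot decide it. With the replicate block alone 1960, 4838 and 4573 genes were called in LPS over control, LPS_ABS over LPS and LPS_ABS over control, beside 1933, 4621 and 4388, and ME1 in LPS_ABS over control had an adjusted p of 0.0575. Counting error of the 9 genes was 4.45% at most, below the 18.4% spread between libraries, so that spread and not depth limited these values.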
